A study of Mus musculus with 6 samples.

Results

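The genes described here are 9 regulators of muscle precursors, muscle growth and fibre type: Eya1, Eya2, Eya4, Pax7, Lbx1, Msc, Fst, Igfbp5 and Sox6. They were chosen by name, as those deposited regions whose RefSeq transcript belongs to one of these genes, which gave 10 of the 10755 regions and 302 of the 268725 cytosine positions in the table. DNA methylation had been measured by reduced representation bisulfite sequencing (RRBS) in quadriceps muscle of C57BL/6 mice, with 3 samples of exercised mice, trained for 4 weeks on a motorised treadmill and sampled 3 hours after the last bout, and 3 samples of sedentary controls. In RRBS the DNA is cut with a restriction enzyme, usually MspI, whose recognition sequence is CCGG, and bisulfite then turns unmethylated cytosines into T while methylated ones stay C. The labels give no age or sex. They leave unsaid whether each sample is a separate animal, so a p-value here measures the spread among samples, which may be technical. Whole muscle holds fibres, satellite cells, vessels, nerve and connective tissue, and a change in the share of a cell type cannot be told apart from a change of methylation within cells.

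These genes act at successive steps of muscle formation. Pax factors and homeobox partners, with Eya proteins as coactivators and phosphatases, switch on the myogenic programme in precursors. Pax7 marks the satellite cells that repair adult muscle, Lbx1 is a homeobox factor of the precursors that migrate into the limb, and Msc (musculin, also called MyoR) is a basic helix-loop-helix repressor of myogenesis. Fst encodes follistatin, which binds and blocks myostatin and activins. Igfbp5 encodes a secreted binding protein of insulin-like growth factors, and Sox6 encodes an HMG-box factor that represses slow-fibre genes. Promoters rich in CpG, such as those of many developmental regulators, are commonly free of methylation whether or not the gene is active.

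Total coverage was between 9153526 calls (sedentary sample 3) and 18656340 calls (sedentary sample 2), with a median of 27 to 59 reads per position. The table lists positions covered at least 10 times in all 6 samples. Placing RefSeq promoter windows by the spacing of measured CpGs put 856 plus-strand and 717 minus-strand windows at the same point, of 2448 with a single exact placing, so that the 3000 bp regions run from 2000 bp before to 1000 bp after a start site. The next most frequent placing was found 9 times. Distances from the start site given below for Igfbp5 and Sox6 assume the usual placing, which was not checked on the sequence of these genes.

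Promoter sequence was at hand for Pax7, Eya4, Igfbp5 and Sox6 (RefSeq, build GRCm38.p6), and measured CpGs could be placed on those of Pax7 and Eya4. They are shown because they let single levels be read against the sequence. Each runs 5′ to 3′ from base -250 to base -1 before the start site, and capitals mark CpGs measured on at least 1 strand.
Pax7 (chr4:139832969-139833218, minus strand): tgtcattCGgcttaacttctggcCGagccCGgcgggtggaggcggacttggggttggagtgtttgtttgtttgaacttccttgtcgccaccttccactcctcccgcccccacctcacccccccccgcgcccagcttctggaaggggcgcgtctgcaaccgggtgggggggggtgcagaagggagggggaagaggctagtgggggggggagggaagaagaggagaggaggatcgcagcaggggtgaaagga
Eya4 (chr10:23349944-23350193, minus strand): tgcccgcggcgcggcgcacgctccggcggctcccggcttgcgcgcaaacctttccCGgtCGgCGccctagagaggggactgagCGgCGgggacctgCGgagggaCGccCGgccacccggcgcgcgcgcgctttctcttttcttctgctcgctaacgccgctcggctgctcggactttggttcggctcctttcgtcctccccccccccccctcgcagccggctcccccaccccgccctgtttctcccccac

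In these stretches the cytosines inside the sequence CCGG stood apart from the rest. The Pax7 stretch held 2 copies of CCGG and the Eya4 stretch 6. CCGG reads the same on both strands, and 47.1% of all 32851 RefSeq promoter stretches of that length held at least 1 copy. All 4 measured cytosines in CCGG had a level, pooled over the 6 samples, of 10% or more (14.5% to 99.5%), and 0 of the 10 outside it did (0% to 5.0%). In Pax7 the CpG at -221, which is in CCGG, was at 16.5% on one strand and 99.5% on the other. The CpGs at -227 and -243 were at 0.488% to 5.0%. In Eya4, which has a further annotated start site nearby, the CCGG cytosines at -142 and -195 from the one used here were at 99.1% and 14.5%, and the 6 measured CpGs between them were at 0% to 2.05%. The Eya4 window lies 41 bp from the usual placing, and an alternative placing 1 base away marks the same CpGs. The window of the further start site falls nearer to the usual placing. Measured from that start site, the same CCGG cytosines lie at -195 and -248.

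The same split held in the promoter windows of the table that could be placed. These ran from 250 bp before to 50 bp after a start site and held 36713 of the 268725 positions. Outside these windows and the stretches above, CCGG was not looked for. In these windows, from 2886 regions, 97.2% of 9309 positions in CCGG had a level of 10% or more, with a median of 68.6%. Outside CCGG this was 4.68% of 27404 positions, with a median of 1.47%. Levels in CCGG clustered at both ends of the scale, with 39.0% at 90% or more and 29.9% from 10% up to 30%. In RRBS the cut ends of the fragments are filled in with new bases, so a level read at a cytosine of the cut site may not be that of the tissue, and whether this touched the levels in CCGG was not tested. Of the positions at 10% or more in these windows, 87.6% were in CCGG. Every region level below includes positions at 10% or more.

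**Figure D1:**
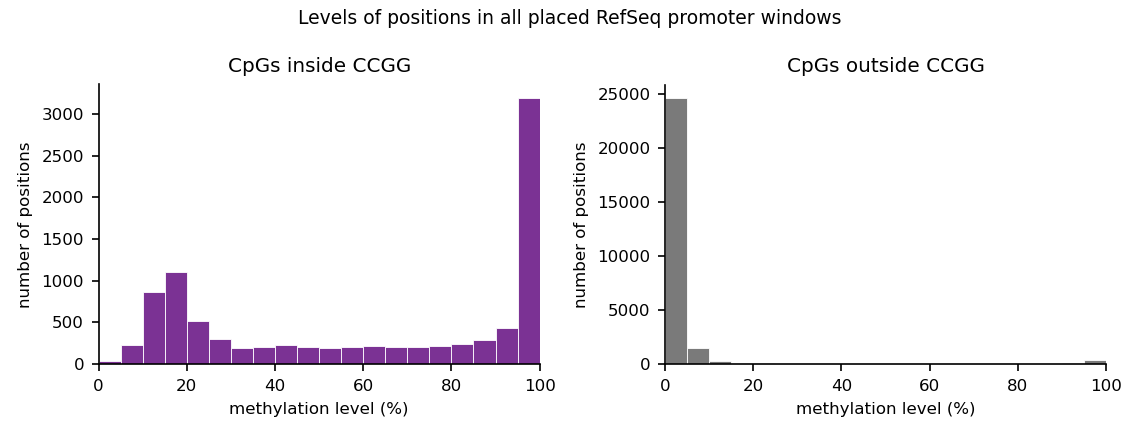
Number of positions by methylation level (%, bins of 5 points) for CpGs inside and outside CCGG in all placed RefSeq promoter windows. Levels inside CCGG pile up near 100% and between 10% and 30%, whereas nearly all CpGs outside it lie under 10%.

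For the muscle regulators, 210 of the 302 positions (69.5%) were under 10% and 92 (30.5%) at 10% or more, against 69.0% and 31.0% in the whole table. Those 92 positions carried 92.1% of the methylated reads of these genes. Of the 92, 71 stood alone, meaning that the median of the other positions within 100 bp was under 10%. The median level was 2.05% among the low positions and 73.1% among the others, against 1.45% and 70.4% in the table. Both kinds of position are therefore described.

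**Figure D2:**
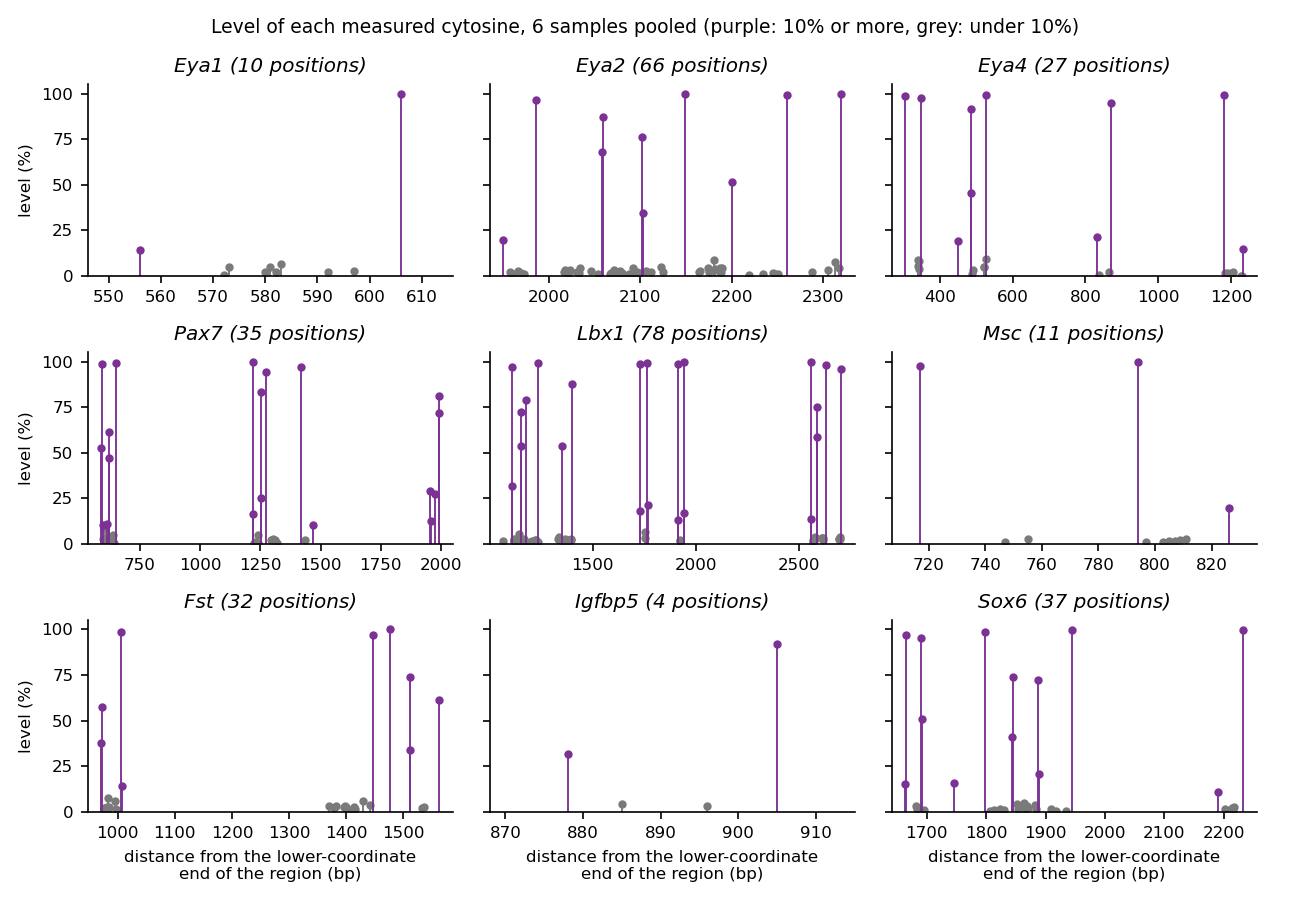
Level (%) of each measured cytosine, pooled over 6 samples, against its distance in bp from the lower-coordinate end of the region, for 9 regions. Grey positions under 10% fill the stretches between single purple positions of 10% or more, which often reach 90% to 100%.

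Among the Eya coactivators, Eya1 (transcript NM_001252192, chromosome 1, 14299281 to 14302280 in mm9) was measured at 10 positions within 51 bp. Its outermost positions were at 14.3% and 99.5%, and the 8 between them at 0.625% to 6.34%. Its region level was 10.8%, 12.6% and 12.1% in the exercised samples (numbers 1 to 3, the order used throughout) and 13.8%, 11.3% and 14.1% in the sedentary ones. The groups overlapped, and the difference of means, exercised minus sedentary, was -1.19 percentage points (SE 1.04). Leaving out sedentary sample 2 or 3 gave -2.08 and -0.672.

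The 66 positions of the Eya2 region of NM_001271963 (chromosome 2, 165418528 to 165421527) lay within 371 bp, with 56 under 10%. Its level was 14.3%, 13.9% and 13% in exercised mice and 12.1%, 12.5% and 14.4% in sedentary mice, which overlap, and the difference was 0.734 points (SE 0.804). Leaving out sedentary sample 1 or 3 gave 0.287 and 1.44. The difference was 0.130 without stand-alone positions and 0.183 as a mean of fractions. The other Eya2 region, of NM_010165 (chromosome 2, 165478798 to 165481797), had only 2 positions and did not enter the test over regions. One of them (165481058) was methylated in every read, and the other (165481010) was at 70%, 27.8% and 25% in exercised and 41.7%, 50% and 77.8% in sedentary samples. It was covered by 10 to 28 reads, and the 95% Wilson interval of the first value, 7 of 10 reads, ran from 39.7% to 89.2%. Such intervals cover counting error only, since no molecular identifiers are named.

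Eya4 (NM_010167, chromosome 10, 23068710 to 23071709) had 27 positions, 17 of them under 10% and 6 at 90% or more. Its level was 27.9%, 29.2% and 30.7% in exercised and 28.3%, 28.8% and 29.9% in sedentary samples. The samples of both groups interleave, and the difference was 0.270 points (SE 0.922). It was -0.425 without exercised sample 3 and -0.0962 without sedentary sample 1.

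Pax7 (NM_011039, chromosome 4, 139387884 to 139390883) had 35 positions, of which 19 were at 10% or more. Its level was 34.0%, 29.6% and 26.9% in exercised and 28.6%, 31.1% and 25.7% in sedentary samples. Exercised sample 1 was the highest, and sedentary sample 2 lay above the other exercised samples. The difference of 1.69 points (SE 2.57) turned to -0.222 points without exercised sample 1.

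Lbx1 (NM_010691, chromosome 19, 45308727 to 45311726) had 78 measured positions, the most of these genes, 56 of them under 10%. Its level was 22.4%, 21.4% and 17.0% in exercised and 20.5%, 17.9% and 19.1% in sedentary samples, so that the exercised samples held both the highest and the lowest value. The difference was 1.12 points (SE 1.81), and leaving out exercised sample 1 or 3 gave 0.0777 and 2.74.

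Msc (NM_010827, chromosome 1, 14745048 to 14748047) had 11 positions, 8 of them at 0.956% to 2.86% and 3 at 19.5%, 97.6% and 99.6%. Its level was 17.3%, 16.6% and 16.0% in exercised and 19.96%, 19.0% and 16.5% in sedentary mice. The difference was -1.86 points (SE 1.11). Sedentary sample 3 lay among the exercised samples, and the difference ran from -2.88 without it to -1.13 without sedentary sample 1.

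Of the secreted growth regulators, Fst (NM_008046, chromosome 13, 115247939 to 115250938) had 32 positions, 23 of them under 10%. Its level was 22.3%, 22.6% and 18.1% in exercised and 21.5%, 21.0% and 18.1% in sedentary samples, so that sample 3 was the lowest of each group. The difference of 0.792 points (SE 1.80) was -0.0103 without exercised sample 2 and -0.256 without sedentary sample 3.

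The Igfbp5 region (NM_010518, chromosome 1, 72920440 to 72923439) was measured at only 4 positions, from +95 to +122 after the start site. They read 92.3%, 2.96%, 4.14% and 31.8% in that order. The region level was 35.3%, 29.3% and 29.4% in exercised and 37.5%, 30.9% and 32.3% in sedentary mice. The difference was -2.22 points (SE 2.82), and leaving out the first sample of either group gave -4.18 (exercised) and -0.238 (sedentary). With 64 to 207 reads per sample, counting error alone gives 95% Wilson intervals of 6.45 to 11.5 points to each side, wider than the difference.

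Sox6 (NM_001025560, chromosome 7, 123173562 to 123176561) had 37 positions, 24 of them under 10%. Its level was 23.8%, 20.2% and 19.2% in exercised and 20.7%, 21.2% and 21.9% in sedentary samples. The sedentary samples lay between the exercised ones, with a difference of -0.165 points (SE 1.43). Leaving out exercised sample 2, exercised sample 3 or sedentary sample 3 gave 0.262, 0.763 and 0.152 points.

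**Figure D3:**
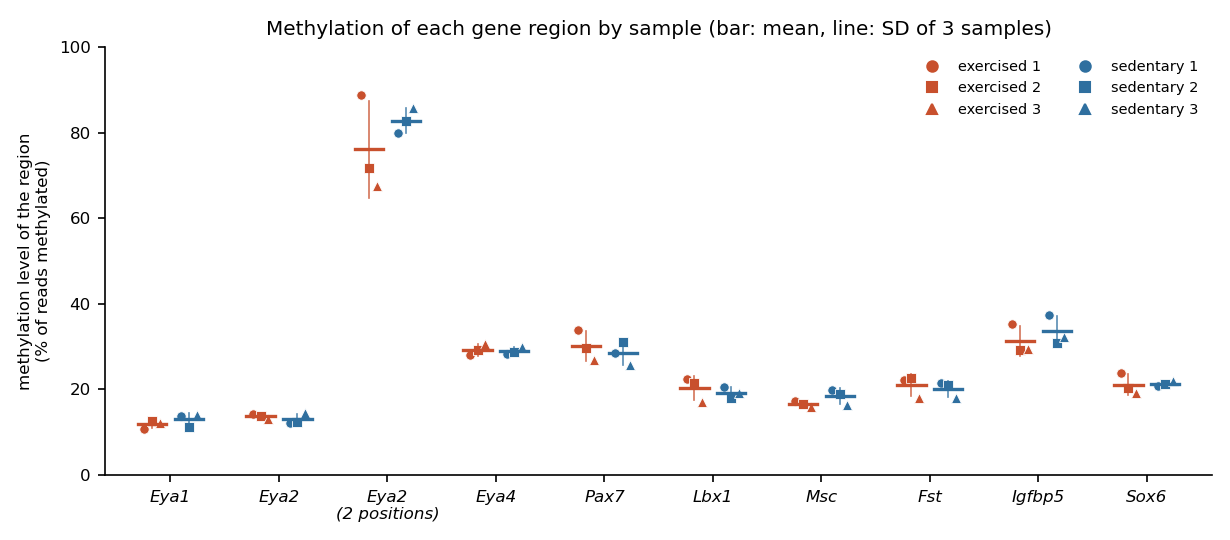
Share of reads methylated (%) in each gene region, 1 point per sample, with the group mean (bar) and SD (line, n = 3). Exercised and sedentary samples overlap in all 10 regions, and the Eya2 region with 2 positions stands far above the others.

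By pooled level the regions ran from Eya1 at 12.2% to Igfbp5 at 32.7%, with a median of 20.8% for the 9 tested regions, against 21.9% for all 10021. Neighbours in that order such as Lbx1 (17.0% to 22.4% over the 6 samples) and Fst (18.1% to 22.6%) overlapped. None of the 9 regions passed edgeR's quasi-likelihood test (0 of 9, adjusted p = 1.0 for each, smallest unadjusted p 0.186 for Msc), where 0% of the 10021 regions passed. At an unadjusted p under 0.05 the count was 0 of 9 against 2.52% of all regions. limma on M values gave 0 of 9 adjusted (0% of all regions) and 0 of 9 unadjusted (2.82% of all). Fisher's exact test on pooled reads, which leaves out the spread between samples, gave 0 of 9 adjusted (6.68% of all) and 2 of 9 unadjusted (20.1% of all). Groups did not overlap in 0 of 9 regions, against 7.25% of all regions. Of the 9 differences 5 were above 0, with a median of 0.270 points, and 61% of all regions were above 0, with a median of 0.390.

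Over the low positions alone, Pax7 and Lbx1 had every exercised sample above every sedentary one. Whether these positions lie in CCGG was not read for Lbx1, nor for most of those in Pax7. In Pax7 the 16 low positions were methylated in 2.95%, 3.42% and 2.37% of reads in exercised and 2.36%, 1.53% and 0.973% in sedentary samples. In Lbx1 the 56 low positions were at 2.45%, 2.67% and 2.05% in exercised and 1.81%, 1.54% and 1.58% in sedentary samples. The differences were 1.29 points (SE 0.505) and 0.744 points (SE 0.20), with unadjusted p of 0.159 and 0.303 and adjusted p of 0.999 in edgeR, and in Pax7 the nearest samples, 2.37% and 2.36%, nearly touch. At an unadjusted p under 0.05, 0 of 8 regions passed against 4.56% of all. This was 2 of 8 regions without overlap and higher in exercised samples, where 8.09% of 8735 regions had that pattern. In the other 6 regions the groups overlapped, with differences from -1.83 points (Eya1) to 1.46 points (Fst). Pooled over the low positions of all these genes, the level was 2.30% ± 0.194 for exercised mice and 2.05% ± 0.602 for sedentary mice (SD, n = 3), and 1.89% ± 0.270 and 1.77% ± 0.273 over the whole table.

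Over positions at 10% or more, Msc was the only one of 7 regions without overlap. Its 3 positions were methylated in 58.7%, 62.6% and 59.6% of reads in exercised and 73.3%, 71.6% and 64.7% in sedentary samples. The difference was -9.58 points (SE 2.88) with an unadjusted p of 0.0192 (edgeR adjusted p = 0.999), and 4.36% of 8627 regions had groups apart in this direction. At an unadjusted p under 0.05, 1 of 7 regions passed against 2.97%. Among the 3, position 14745874 was at 6.82%, 19.3% and 11.1% in exercised and 40.7%, 28.8% and 14.1% in sedentary samples. The other high positions of Msc were at 92.9% to 100% in every sample. The low positions of Msc went the other way, by 0.582 points. Fst, too, changed sign with the positions used, from -4.07 points over high positions to 1.46 over low ones. Restricting the test to low or to high positions was chosen after seeing the data.

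**Figure D4:**
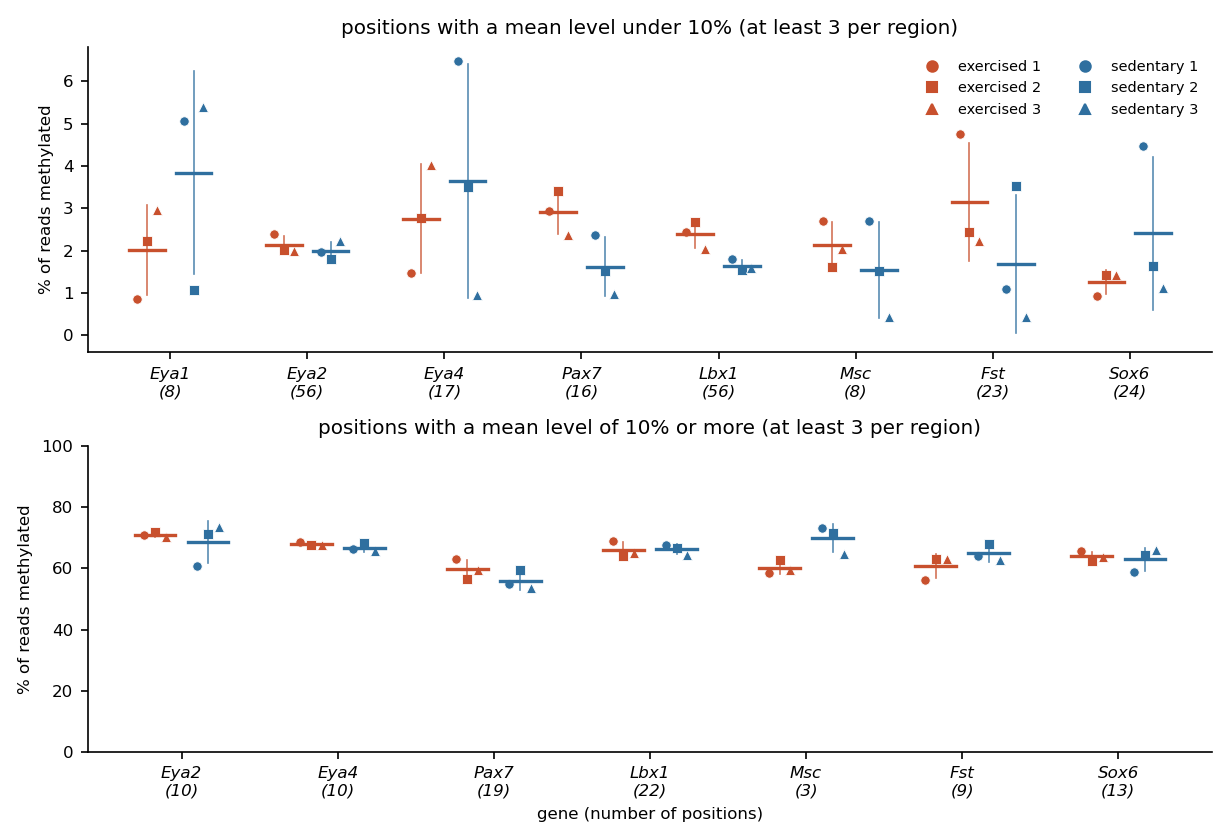
Share of reads methylated (%) over low positions (top, axis to about 7%) and over positions of 10% or more (bottom), by gene with the number of positions, 1 point per sample with group mean and SD (n = 3). The low positions of Pax7 and Lbx1 lie higher in exercised samples, the high positions of Msc lower, and the other groups overlap.

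Splitting each region into 1000 bp segments gave 15 testable segments, of which 0 passed edgeR (0% of 14112), 0 had an unadjusted p under 0.05 (2.91% of all) and 1 had groups apart (7.98% of all). That segment was the downstream part of Pax7 (139387884 to 139388883), with 14 positions at 38.0%, 31.5% and 31.7% in exercised and 30.9%, 31.2% and 26.9% in sedentary samples. The difference was 4.05 points (SE 2.54, unadjusted p 0.131, edgeR adjusted p = 1.0), and the nearest samples, at 31.5% and 31.2%, lie close together.

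Single positions showed where Pax7 varied. The stretch from -955 to -978 held 3 positions at intermediate levels, at 29.0%, 12.4% and 27.5%. At -978 (139389861) the level was 48.0%, 45.5% and 28.6% in exercised and 2.44%, 33.3% and 5.56% in sedentary samples. The intervals of exercised sample 1 (12 of 25 reads, 30% to 66.5%) and sedentary sample 1 (1 of 41 reads, 0.432% to 12.6%) lie apart, yet sedentary sample 2 stood above exercised sample 3. The difference of 26.9 points (SE 11.6) had an unadjusted p of 0.0439 (edgeR adjusted p = 0.841) and ran from 21.2 to 36.7 points when 1 sample was left out. At -955 the level was 50%, 32.1% and 31.6% against 16.2%, 34% and 5.56%, and at -959 it was 41.7%, 15.6% and 5% against 0%, 12% and 5.56%. The adjoining positions at -994 and -995 differed the other way, by -7.30 (SE 7.99) and -3.77 points (SE 6.62), with overlapping groups. At all 3 positions from -955 to -978, sedentary sample 2 was the highest of its group and exercised sample 1 the highest of all 6. These positions were covered by 18 to 51 reads per sample and, being this close, can share reads, so they are not independent.

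The downstream block of Pax7 also varied between samples. At +410 the level was 63%, 40.9% and 74.2% in exercised and 38.5%, 56.5% and 33.3% in sedentary samples, and at +377 it ran from 28.6% to 74.4%, both extremes in exercised samples. The groups overlapped at both. At +386, +397 and +404, exercised sample 1 stood at 40%, 37.5% and 40%, and the other 5 samples at 0% to 14.6%. At the bases next to these, on the other strand of the same CpGs (+387, +398 and +405), exercised sample 1 was at 0%, 2.13% and 0%. The largest value there was 12.5%, in exercised sample 2. The positions at +350 and +409 were at 92.3% to 100% in every sample.

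**Figure D5:**
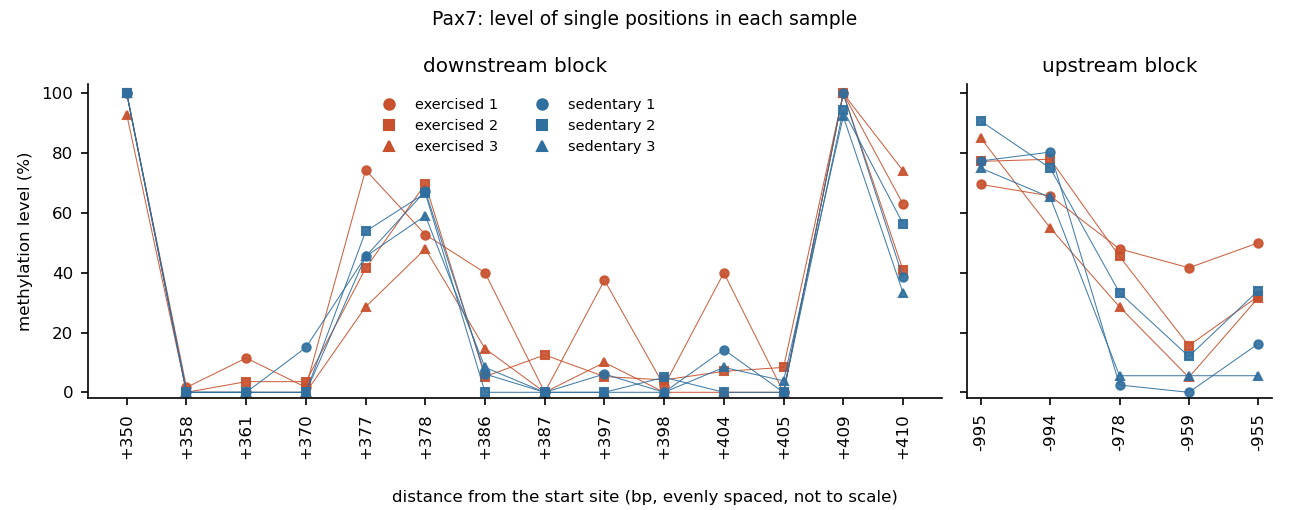
Level (%) of single Pax7 positions in each of 6 samples, in the downstream block (+350 to +410) and the upstream block (-995 to -955), evenly spaced along the axis. Exercised sample 1 alone stands at 37.5% to 40% at 3 positions downstream, and at -978 sedentary samples 1 and 3 lie below the other 4 samples.

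Over all genes described here, 0 of 294 testable positions passed edgeR (0% of 253960), 12 (4.08%) had an unadjusted p under 0.05 against 4.9% of all positions, and 11 (3.74%) had groups apart against 6.16%. limma on M values gave 0 of 294 adjusted (0% of all positions) and 4 of 294 unadjusted (1.36%, against 3.57% of all). By the p-values of the authors' deposited table, 5 of the 294 positions (1.7%, against 3.13% of all) were under 0.05 unadjusted, 1 each in Eya2, Eya4, Fst, Lbx1 and Sox6. The smallest of these 5 p-values in the authors' deposited table was that of a Sox6 position.

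That Sox6 position (123175415, -854 from the start site) was unmethylated in all 277 reads of exercised samples, which allows a level of up to 1.08%, and stood at 3.09%, 3.55% and 2.17% in sedentary samples (edgeR unadjusted p 0.0106, adjusted p = 0.841). At -860, -865 and -870 of Sox6, with unadjusted p of 0.0209, 0.0348 and 0.0202, sedentary sample 1 was at 14.3%, 15.8% and 14.7%. The other 5 samples were at 0% there, except at -865, where exercised sample 2 was at 1.56% and sedentary sample 3 at 8.70%. Being this close, these 3 positions can share reads, so they are not independent. The Lbx1, Fst and Eya2 positions that follow, and that of Eya4 further below, had the smallest edgeR p of their gene. Those of Lbx1, Eya2 and Eya4 were not the ones under 0.05 in the authors' deposited table. Their p there was 0.0640, 0.263 and 0.266. In Lbx1, position 45309882 stood at 1.33%, 4.76% and 7.5% in exercised samples and was unmethylated in all 174 reads of sedentary ones, which allows up to 1.72%. In Fst, position 115249355 stood at 1.67%, 2.38% and 4.0% in exercised samples and at 0 of 202 reads in sedentary ones, which allows up to 1.49%. In Eya2, position 165420601 was at 0 of 413 reads in exercised samples, which allows up to 0.726%, and at 0.676%, 3.48% and 0% in sedentary ones. The differences at these 4 positions ran from -2.94 to 4.53 points on nearly unmethylated DNA, each with an edgeR adjusted p of 0.841. The upper limits given for counts of 0 are 3 divided by the reads of 3 samples pooled. They cover counting error only and leave out the spread between samples. By sample, the 95% Wilson intervals at the Lbx1 position reached up to 7.71%, 3.97% and 9.89% in the sedentary samples.

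The positions with the smallest p in the remaining genes had overlapping groups. In Eya4, position 23069053 was at 0%, 4.55% and 15.2% in exercised and 0%, 2.08% and 0% in sedentary samples. In Eya1, position 14299853 was at 0% in every sample but sedentary sample 3, at 6.67%. In Igfbp5, position 72921318 (+122) spread from 10.3% to 43.1% in exercised and from 22.6% to 53.8% in sedentary samples. The largest differences in Lbx1 lay at stand-alone positions with wide spread inside each group: position 45309879 was at 85.5%, 64.7% and 21.6% in exercised and 31.4%, 46.7% and 20% in sedentary samples. Position 45310078 was at 75.7%, 40.5% and 65% against 26.7%, 54.0% and 34.8%, and position 45309834 was at 83.9% in sedentary sample 1 and 19.7% to 31.0% in the other 5. In Eya2, position 165420478 was at 51.1% in exercised sample 1 and 9.66% to 22.7% in the other 5.

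Of 6 lists of related genes, with 59 tested regions, 0 regions passed edgeR and 1 had an unadjusted p under 0.05 (2.52% of all regions). Their differences were above 0 in 37 and below in 22, with a median of 0.273 points. Over all regions 61% were above 0, with a median of 0.390 points. Groups were apart in 4 of the 59, against 7.25%: Igfbp4, Six5 and the activin receptor gene Acvr2a with the exercised samples below, and Barx2 with them above. Six5 stood at 20.5%, 20.7% and 20.6% against 21.9%, 22.1% and 20.9%, and Acvr2a at 19.7%, 19.2% and 18.1% against 20.1%, 19.8% and 19.8%, both named after their values were seen. Without stand-alone positions the difference of Acvr2a turned from -0.883 to 0.545 points, and that of Six5 went from -1.05 to -1.37. The region with the unadjusted p under 0.05 was that of Igfbp4, another binding protein of insulin-like growth factors, at 27.5%, 26.6% and 28.6% in exercised and 30.3%, 32.0% and 33.8% in sedentary samples. Its difference was -4.48 points (unadjusted p 0.0215, edgeR adjusted p = 1.0), and -5.92 without stand-alone positions. In the same list of 10 regions, 5 were above and 5 below 0, and the 3 regions of Igf2, the fetal growth factor, went both ways, at 1.61 (NM_010514), -0.125 (NM_001122737) and -3.89 points (NM_001122736).

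Among 7 regions of the Pax-Six-Eya-Dach network, 4 were above and 3 below 0, where 61% of all regions were above 0. Six2 stood at 18.5%, 16.0% and 12.9% against 13.7%, 14.4% and 13.4%, and Eya3 differed by -1.64 points. Of 9 regions of myogenic and precursor factors 6 were above 0, with Barx2, a homeobox factor of muscle stem cells, at 1.17 points and groups apart. Without stand-alone positions the Barx2 difference was -0.0196 points. Of 13 regions of activin, myostatin and follistatin signalling 7 were above 0, with the signal transducer Smad2 at 1.40 and the receptor gene Acvr2b at -1.19 points. Of 8 fibre type regions 7 were above 0, with a median of 0.899 points, against 61% and a median of 0.390 points over all regions. A region of Nfatc1, a calcium-regulated factor of slow fibres, with 30 positions, stood at 28.0%, 23.6% and 20% against 19.4%, 21.8% and 19.98%. Its difference went from 3.47 to 1.68 points without stand-alone positions. The other Nfatc1 region, with 97 positions, differed by 0.579 points, and by 1.08 without stand-alone positions. Myl3, a slow myosin light chain, differed by 5.74 points over 3 positions. Of 12 Notch regions 8 were above 0, with the ligand gene Jag1 at 2.18 and the target gene Hes1 at 1.91 points.

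Of the 9 tested regions, the 3 with the largest SD of the level over 6 samples were Igfbp5, Pax7 and Lbx1, at 3.32, 2.97 and 2.08 points. Igfbp5 rests on 4 positions and 64 to 207 reads per sample, with Wilson intervals of 6.45 to 11.5 points to each side. Its SD was not separated from counting error, and it falls short of the number of positions asked of the regions compared below. By Pearson's r of the level over the 6 samples, among 2738 or 2739 regions with at least 10 positions, a mean of 20 reads and an SD of 2 points, the regions most like Igfbp5 were Swap70 and Fem1a (r = 0.954 for each), those most like Pax7 were Mkrn3 (0.991) and Ppp2cb (0.988), and those most like Lbx1 were Eif3b (0.995) and Gdf10 (0.994). These are the highest of many values over 6 libraries that share their depth, and they are given as a description.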

How the data were processed

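RRBS of quadriceps muscle DNA covered 3 exercised and 3 sedentary samples grouped by their titles. The submitters' processing notes list Bismark 0.7.7 and Bowtie 0.12.9, cutadapt 1.0 and Trim Galore 0.2.5, and the build mm9. Their settings are not known here. Per the file headers, the authors deposited for each sample the methylated fraction of each position and the count of covering reads. Their deposited p-value, unadjusted, was matched within 5.0e-10 by a test with equal variances on the 6 fractions. Fraction times coverage was whole within 0.00236 reads, which gave methylated and unmethylated counts.

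Counts were summed by region (at least 3 positions) and by 1000 bp segment, or used per position, and tested with edgeR 4.0.16 (R 4.3.3), with a term per sample, no dispersion trend, and Benjamini-Hochberg adjustment over the whole table at 0.05. A region's level is its methylated reads as a share of all its reads. The script was tested on simulated data. Symbols came from RefSeq through transcript accessions (10655 of 10755 regions), promoter sequences from RefSeq for GRCm38.p6. Measured CpGs were placed on these by their spacing, without converting coordinates. Exon annotation in mm9 was not used here. As alternatives, limma 3.58.1 on M values, a replicate block, 1 sample left out at a time, coverage of 20 or more, Fisher's exact test, merged strands, at least 5 positions, the mean of fractions and removal of stand-alone positions were run. The members and gene lists were chosen with earlier results of these data known. Named were each member, its position with the smallest p, and the 2 regions with the smallest p in each list, of which 1 is not reported here. Other positions named were chosen after their values were seen. The lowest mean chi-square per position of any 2 samples was 1.64, above sampling noise, so none was counted as a duplicate.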

Additional observations from a re-analysis of the deposited data

How the results depend on the processing

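For regions, segments and positions, 0 of the genes' units passed the adjusted threshold under every alternative run at that level. Fisher's exact test, merged strands and the limit of at least 5 positions were run for regions only. Fisher's exact test called 669 of all 10021 regions. The authors' deposited test, which is unadjusted, called 5 positions. Of 223 recomputed differences of single regions and positions, 205 kept their direction and 18 changed it. Many of these could not change. The replicate block, limma, Fisher's exact test and the limit of at least 5 positions keep a region's difference as it is. At single positions, which were those with the smallest p in each gene, the block, limma and the coverage limit do the same. With 1 sample left out, the ranges of the differences that crossed 0 were -0.222 to 3.32 points for Pax7, -0.256 to 2.25 for Fst, -0.425 to 0.940 for Eya4 and -1.52 to 0.763 for Sox6. Fst turned to -0.0507 points at a coverage of at least 20 and to -2.12 with merged strands. Eya4 turned to -0.807 without stand-alone positions taken by the mean of their neighbours, to -0.896 with these taken by the median, and to -0.896 over low positions. Over high positions Sox6 turned to 1.02, Fst to -4.07 and Lbx1 to -0.237 points. Msc turned to 0.582 over low positions and likewise without stand-alone positions by the median. The causes were not tested. The median rule and the restriction to low or high positions were chosen after seeing the data.

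Over all regions the unadjusted count of 253 was 523 without exercised sample 3, 440 without stand-alone positions by the median, 398 over low positions and 2019 by Fisher's exact test. For segments, 411 became 692 without exercised sample 3, and for positions, 12435 became 8095 at a coverage of at least 20. The replicate block gave 0 adjusted calls, and moved the unadjusted count of positions from 12435 to 5834 over the table and from 12 to 5 in these genes. The correlations of deviations from the group means were 0.00210, -0.24 and -0.0834 for equal replicate numbers 1, 2 and 3. For unequal numbers they ran from -0.109 to 0.191. Deviations from a mean of 3 samples are tied to each other within a group, so these values cannot settle whether equal numbers are paired. Coverage limits the Eya2 region with 2 positions and Igfbp5 most, where Wilson intervals reached 14.5 and 11.5 points to each side.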

Other observations

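Regions of marker genes of muscle fibres and other cell types were few in the table. Of 13 fibre markers 4 were present, with levels from 1.06% (the Z-disc gene Actn2, 4 positions) to 73.9% (the skeletal actin gene Acta1, 3 positions). RNA was not measured, so expression of these markers could not be checked. Of 8 satellite cell markers 5 were present, and the 4 tested regions (Pax7, Itga7, Megf10 and Sdc4) stood at 29.6% to 36.3%, with 2 differences above and 2 below 0. Tested regions of endothelial (4), leukocyte (2), fibroblast (3), nerve (2) and smooth muscle (3) markers had 0 with an unadjusted p under 0.05 in edgeR. In the list taken for adipocytes 1 of 3 regions had such a p. It was that of Slc2a5 (4 positions), with a difference of -8.50 points and groups apart. Slc2a5 encodes a fructose transporter, and its use as an adipocyte marker was not checked here. Over all regions 2.52% had an unadjusted p under 0.05 and 7.25% had groups apart. The other tested genes of that list, Lep and Pparg, differed by -8.03 and 0.754 points with overlapping groups. No marker region of these lists passed the adjusted threshold, and the part of cell composition in the levels of the muscle regulators was not tested.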
